A study of Mus musculus with 4 samples.

Results

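The 8 genes described here encode secreted fibroblast growth factors (Fgf) of the caudal mouse embryo and were chosen by name: *Fgf3*, *Fgf4*, *Fgf5*, *Fgf8*, *Fgf10*, *Fgf15*, *Fgf17* and *Fgf18*. All 8 were found among the 31055 genes of the feature table. The data were single-cell RNA sequencing counts from the caudal part of embryos at embryonic day 8.5, while the caudal neural folds are still open. The wild-type (WT) group was 1 pool of 5 embryos and the *Grhl3*-null group was 1 pool of 3 embryos, both from intercrosses of *Grhl3*+/- mice, and each pool was loaded as 2 droplet reactions. *Grhl3*-null embryos lack the transcription factor GRHL3 in every cell from conception and develop spina bifida. The comparison asked which Fgf genes differ in level, and in which cells, when *Grhl3* is absent. Replicates are therefore 2 reactions from the same pool, so the p-values below compare 2 pools and contain no spread between embryos.

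Filtering left 5459 and 5116 WT cells and 4842 and 4781 *Grhl3*-null cells, with a median of 33391 to 38070 UMIs (unique molecular identifiers, each counting 1 captured mRNA molecule) per cell. *Grhl3* itself was counted 878 and 803 times in WT and 12 and 14 times in *Grhl3*-null. The cells fell into 16 clusters, made without the 8 Fgf genes, and 14 of them were named from marker genes as classes. Each named cluster had 5 to 15 of the markers listed for its cell type among its leading genes. The study drew up that marker list from these same cells, so the matches are not independent support for the names. The pre-somitic mesoderm-like class had 1004 cells in WT and 7 in *Grhl3*-null, so the genotypes could not be compared in it. Pairs of libraries shared 5 to 7 cell barcodes. Cells could also be called male or female from *Xist* and 4 Y-linked genes, and 23.1% and 23.6% of WT cells but 47.0% and 48.1% of *Grhl3*-null cells were male. Male and female cells come from different embryos of a pool, so the tests of the 8 genes were repeated within each sex.

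Fgf ligands bind receptor tyrosine kinases (*Fgfr1* to *Fgfr4*) together with heparan sulphate, and the signal passes through the Ras and MAP kinase pathway to Ets-family transcription factors and to feedback inhibitors of the Sprouty and Dusp families. In the elongating embryo, Fgf signals from the tail bud keep neural and mesodermal progenitors immature and are opposed by retinoic acid from the somites. *Fgf8*, *Fgf17* and *Fgf18* form one subfamily, *Fgf4* and *Fgf5* are related to each other, *Fgf3* and *Fgf10* signal mainly through the receptor isoforms of epithelia, and *Fgf15*, the mouse counterpart of human FGF19, belongs to the endocrine subfamily.

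*Fgf3* (chr7:144838083-144844436), *Fgf4* (chr7:144847367-144865243) and *Fgf15* (chr7:144896531-144900953) lie side by side on the plus strand of chromosome 7 in mm10, with 2930 bases between *Fgf3* and *Fgf4* and 31287 bases between *Fgf4* and *Fgf15*. The other members are single genes on chromosomes 5 (*Fgf5*), 11 (*Fgf18*), 13 (*Fgf10*), 14 (*Fgf17*) and 19 (*Fgf8*). The 250 bases before the RefSeq start of *Fgf3* (chr7:144838362-144838611, 55.2% GC) and of *Fgf4* (chr7:144861136-144861385, 71.2% GC; GRCm38.p6, plus strand), both inside the longer GENCODE gene spans, are shown because the results below set these neighbours side by side:
Fgf3: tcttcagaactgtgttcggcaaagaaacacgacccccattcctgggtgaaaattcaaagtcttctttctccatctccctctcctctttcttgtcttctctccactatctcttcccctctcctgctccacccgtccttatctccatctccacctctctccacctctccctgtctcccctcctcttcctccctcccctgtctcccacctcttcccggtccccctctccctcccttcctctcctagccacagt
Fgf4: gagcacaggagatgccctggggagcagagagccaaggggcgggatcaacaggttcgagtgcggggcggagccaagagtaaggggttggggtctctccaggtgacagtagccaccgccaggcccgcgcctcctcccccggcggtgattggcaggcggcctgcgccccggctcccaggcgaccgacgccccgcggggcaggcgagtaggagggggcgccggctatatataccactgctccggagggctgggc
No capitals appear in them because neither sequence held the TCF/LEF motif CTTTGAT, the T-box motif AGGTGT or the CDX motif TTTATG on either strand. These letters were found in 3.21%, 11.8% and 10.8% of 32851 mouse promoter windows of that length.

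Levels are given as CPM, the UMIs of a gene in a class and library divided by all UMIs of that class and library and scaled to the same total everywhere. Each UMI counts 1 captured molecule whatever its length. Capture may differ between genes and was not measured, so CPM of different genes compare captured molecules only. *Fgf8*, the best studied of the tail bud ligands, made up 49.6% and 50.2% of all UMIs of the 8 genes in WT and 51.5% and 51.4% in *Grhl3*-null. *Fgf17* followed with 25.2% and 25.4% in WT and 21.7% and 21.3% in *Grhl3*-null. *Fgf3* held 9.09% and 9.45% in WT and 7% and 7.09% in *Grhl3*-null, *Fgf18* 7.24% to 8.63% over the 4 libraries, *Fgf15* 4.53% to 7.25%, *Fgf10* 2.15% to 3.39%, *Fgf4* 1.00% to 1.07%, and *Fgf5* at most 0.0373% in each library.

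**Figure D1:**
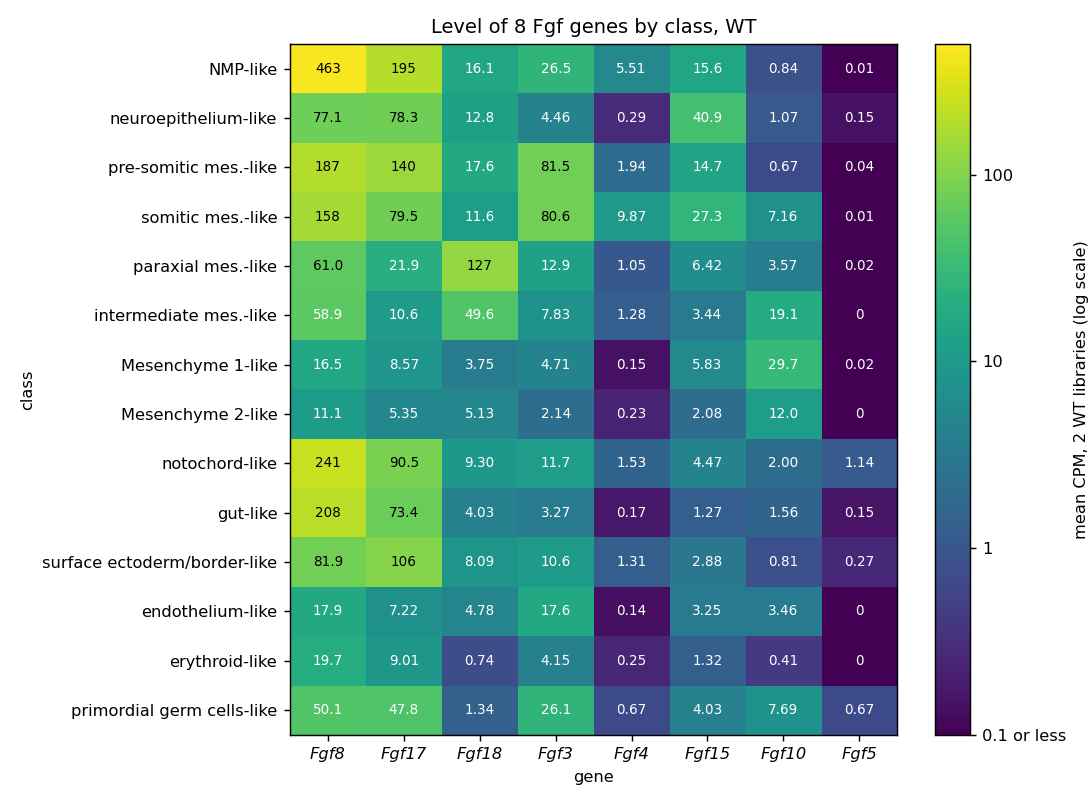
Mean CPM of each gene (columns) in each named class (rows) over the 2 WT libraries, on a log colour scale with the value written in each cell. *Fgf8* and *Fgf17* were highest in neuromesodermal progenitor (NMP)-like cells, *Fgf18* in paraxial mesoderm-like cells and *Fgf10* in Mesenchyme 1-like cells, while *Fgf5* was near 0 in every class.

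Among the named classes in WT, *Fgf8* was highest in NMP-like cells, the bipotent progenitors of spinal cord and mesoderm, at 460 and 465 CPM. Next came notochord-like cells at 228 and 255 CPM, gut-like cells at 194 and 223 CPM and pre-somitic mesoderm-like cells at 182 and 193 CPM. Neighbours in this order were less than 10 CPM apart between their nearest libraries, whereas every library of these classes lay below both NMP-like values. Somitic mesoderm-like cells had 160 and 156 CPM, and neuroepithelium-like and surface ectoderm/neural plate border-like cells had 70 to 87 CPM. In WT, 94.6% and 93.7% of NMP-like cells held an *Fgf8* UMI, at a median depth of 36840 and 36310 UMIs. Erythroid-like cells, which should lack the gene, held one in 11.8% and 12% of cells at 40080 and 36350 UMIs, and their 50 *Fgf8* UMIs in WT library 1 came from only 8 cells. After every cell was thinned to 7500 UMIs the shares were 81.9% (exact binomial 95% interval 79.1 to 84.5) and 82.2% in NMP-like cells against 8.82% and 2.00% in erythroid-like cells. These intervals cover counting error only.

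Among the named classes *Fgf17* was also highest in NMP-like cells, at 195 and 194 CPM, but pre-somitic mesoderm-like cells came next, at 139 and 140 CPM. The unnamed cluster 14, of 86 WT cells, held 202 and 192 CPM of *Fgf17* and 337 and 364 CPM of *Fgf8*. *Fgf17* was at 104 and 108 CPM in surface ectoderm/neural plate border-like cells, where it exceeded *Fgf8*, and at 83.5 and 73.2 CPM in neuroepithelium-like cells, where it equalled *Fgf8* within the spread of the libraries. *Fgf18* had another pattern: 136 and 118 CPM in paraxial mesoderm-like cells, the forming somites, and 49.1 and 50.0 CPM in intermediate mesoderm-like cells, the source of the kidney. In NMP-like cells it had only 15.6 and 16.7 CPM.

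*Fgf3* was at 86.6 and 76.4 CPM in pre-somitic mesoderm-like cells and at 79.2 and 82.1 CPM in somitic mesoderm-like cells, levels that overlapped. *Fgf4*, its neighbour on chromosome 7, was at 2.53 and 1.36 CPM in the first of these classes and at 9.83 and 9.90 CPM in the second. The somitic values lay above both pre-somitic values for *Fgf4* and not for *Fgf3*, but this contrast went with the class boundary. The name of the somitic mesoderm-like class follows the study's markers and does not mark formed somites. *Tbx6* was among its leading genes, while *Tcf15* and *Meox1* led the paraxial mesoderm-like class. The mean WT level of *Fgf3* in somitic mesoderm-like cells was 99 CPM with the members kept in the clustering, 105 CPM at a clustering resolution of 0.8 and 117 CPM with cells assigned by marker score, all above the pre-somitic values given here. *Fgf15* also differed between these classes, with 15.7 and 13.7 CPM in pre-somitic and 27.8 and 26.8 CPM in somitic mesoderm-like cells, and *Fgf17* went the other way, with 79.0 and 80.0 CPM in the somitic class. Nearly all pre-somitic mesoderm-like WT cells were female (986 of 1004, with 1 male), and the 12 posterior *Hox* genes summed to 518 and 522 CPM in them against 23.3 and 24.4 CPM in somitic mesoderm-like cells. The part of embryo and position in these differences was not tested.

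*Fgf15* was highest in neuroepithelium-like cells at 40.2 and 41.7 CPM. *Fgf10*, which drives budding of limbs and lungs later in development, was highest in Mesenchyme 1-like cells at 30.4 and 28.9 CPM, followed by intermediate mesoderm-like cells at 20.2 and 18.1 CPM. *Fgf5*, a marker of the earlier epiblast, gave 17, 13, 20 and 17 UMIs in the 4 whole libraries. Its highest mean CPM in WT, in notochord-like cells, rested on 3 and 4 UMIs, and it passed the count filter in no class. In WT, *Fgf3* had a higher CPM in endothelium-like than in erythroid-like cells. It was at 21.2 and 14.0 CPM in endothelium-like cells against 3.26 and 5.04 CPM in erythroid-like cells, while *Fgf8* was alike in both, with 10.96 and 24.9 CPM against 16.3 and 23.2 CPM. In thinned WT cells 9.15% (5.09 to 14.9) and 10.3% (5.98 to 16.1) of endothelium-like cells held an *Fgf3* UMI, against 1.47% (0.04 to 7.92) and 2.00% (0.05 to 10.7) of erythroid-like cells, so the intervals overlapped.

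Across the 16 WT clusters, the genes whose log2(CPM + 1) was most like that of *Fgf8* were *Wnt3a*, a tail bud Wnt ligand (Pearson r 0.94), *Tcea3* (0.91) and *Epha1* (0.87). The same genes were most like *Fgf17*, with r of 0.97 for *Tcea3*, 0.94 for *Wnt3a* and 0.91 for *Epha1*. The r between *Fgf8* and *Fgf17* was 0.92. *Fgf3* was most like *Tbx6*, a T-box factor of presomitic mesoderm (0.89), *Fgf4* like *1190005I06Rik* (0.77) and the clock gene *Hes7* (0.75), *Fgf10* like *Hand2* (0.91), *Fgf15* like the Notch target *Hes5* (0.83) and *Fgf18* like *Vamp4* (0.89) and *Ntn1* (0.86). These values describe 16 clusters of the same 2 libraries, and low members such as *Fgf4* and *Fgf5* carry counting noise.

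Single cells often held several members. In thinned NMP-like cells, 91.6%, 90.9%, 92.0% and 91.9% of cells with an *Fgf17* UMI (WT libraries 1 and 2, then *Grhl3*-null 1 and 2) also had *Fgf8*, against 64.2%, 63.7%, 63.8% and 77.8% of cells without *Fgf17*. In thinned neuroepithelium-like WT cells the opposite held for *Fgf15*. *Fgf8* was found in 7.07% and 10.0% of cells with *Fgf15* and in 32.8% and 29.8% of cells without it. In *Grhl3*-null neuroepithelium-like cells these shares were 8.81% and 6.32% against 8.06% and 7.74%.

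The genotypes were compared on UMI counts summed per class and library with edgeR's quasi-likelihood test, and a gene was called at a Benjamini-Hochberg adjusted p under 0.05 over all genes tested in that class. Of 112 pairs of a member and a fitted class, 81 passed the count filter. In these, 34 pairs were called, 8 higher and 26 lower in *Grhl3*-null cells, against 12.1% of all gene and class pairs. In the 12 named classes 28 of 73 pairs were called, 8 higher and 20 lower. *Fgf17* was called in 8 of 14 classes and *Fgf3* in 5 of 13 and *Fgf18* in 5 of 12, in each case lower in *Grhl3*-null. *Fgf8* was called in 8 of 14 (2 higher, 6 lower), *Fgf10* and *Fgf15* each in 4 of 12 (3 higher, 1 lower) and *Fgf4* in 0 of 4, with 1 unadjusted p under 0.05 (paraxial mesoderm-like cells) and 0 calls by DESeq2, which gave no adjusted p in NMP-like cells. The remaining 6 calls, all lower, lay in 2 unnamed clusters in which 240 of 264 and 82 of 86 WT cells could not be given a sex, and their median depth was 16220 and 16172 UMIs, below that of the named classes. Of the 28 calls in named classes, 12 were also called with DESeq2, which gave no adjusted p for 2, and 15 in each of the 4 fits that left out 1 library. 8 were called in all of these, at a clustering resolution of 0.8 and with cells assigned by marker score: *Fgf17* and *Fgf8* in gut-like cells, *Fgf17* in Mesenchyme 1-like cells, *Fgf15* in neuroepithelium-like and paraxial mesoderm-like cells, *Fgf18* in paraxial mesoderm-like cells, and *Fgf8* in somitic mesoderm-like and surface ectoderm/neural plate border-like cells. Of these 8, *Fgf17* in gut-like and Mesenchyme 1-like cells and *Fgf8* in somitic mesoderm-like cells were called in both sexes. *Fgf8* in gut-like cells and *Fgf15* in its 2 classes were called in male cells only. *Fgf18* in paraxial mesoderm-like (0.33 in female, -1.13 in male cells) and *Fgf8* in surface ectoderm/neural plate border-like cells (1.26 and -0.28) had opposite signs. The shares of all genes whose calls held under the same alternatives are not given. These counts therefore do not set the members apart from other called genes. Some calls rested on levels at or near those of erythroid-like cells, which were 4.48 to 10.2 CPM for *Fgf17*, 2.56 to 5.04 CPM for *Fgf3* and 0.33 to 1.60 CPM for *Fgf10* over the 4 libraries. These were *Fgf17* in both mesenchyme classes, *Fgf3* in Mesenchyme 1-like and gut-like cells and *Fgf10* in NMP-like cells, and the part of free RNA in them was not tested.

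**Figure D2:**
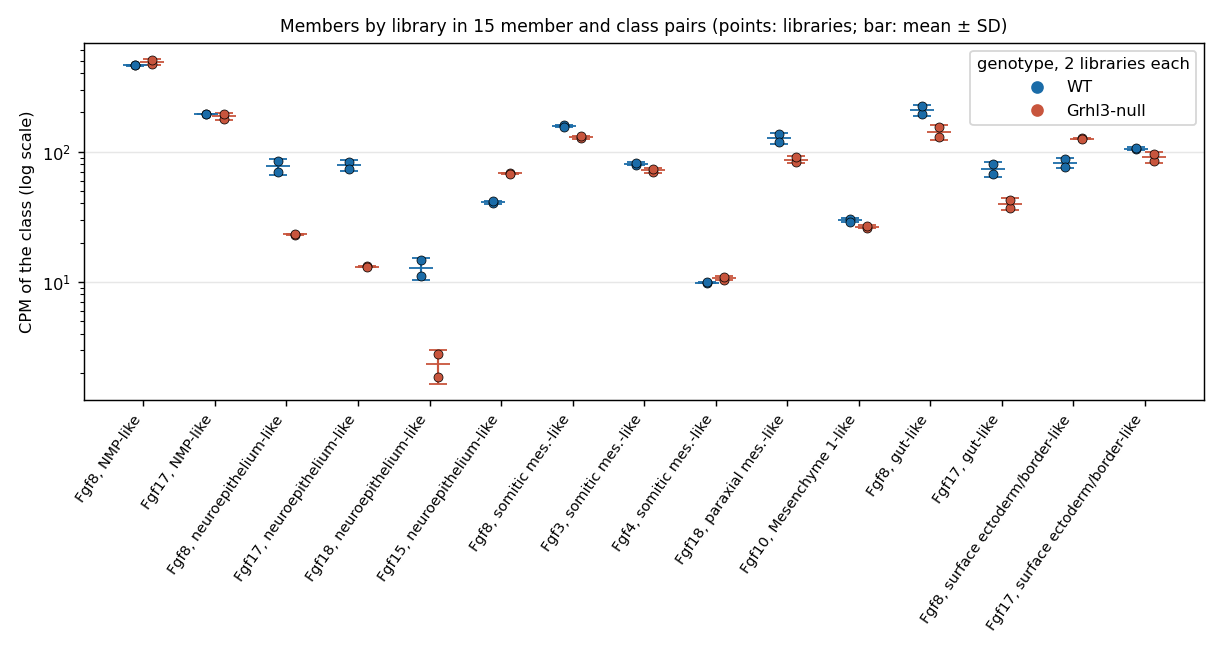
CPM (log axis) of 15 pairs of a gene and a class in the 2 WT (blue) and 2 *Grhl3*-null (red) libraries; points are libraries and bars the mean ± SD. *Fgf8* in NMP-like cells lay between 460 and 508 CPM in all 4 libraries, while *Fgf8*, *Fgf17* and *Fgf18* in neuroepithelium-like cells were lower in both *Grhl3*-null libraries.

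NMP-like cells, where *Fgf8* and *Fgf17* were highest among the named classes, showed little difference between the genotypes over all cells. *Fgf8* was at 460 and 465 CPM in WT and 468 and 508 CPM in *Grhl3*-null. *Fgf17* was at 195 and 194 CPM in WT and 179 and 195 CPM in *Grhl3*-null, and the groups overlapped. In this class 1 of 7 tested members was called, against 18.4% of all genes: *Fgf10* was higher in *Grhl3*-null (log2 difference 0.94 ± 0.27 SE, adjusted p = 0.0326, edgeR), from only 0.81 and 0.87 CPM to 1.23 and 2.08 CPM, a call that ended without *Grhl3*-null library 2 (0.55) and without either WT library (0.89 and 0.98). For *Fgf8* the log2 difference was 0.06 ± 0.03 (adjusted p = 0.258) and for *Fgf17* -0.07 ± 0.04 (adjusted p = 0.203).

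Within each sex the genotypes lay further apart. In female NMP-like cells *Fgf8* was at 405 and 420 CPM in WT and 488 and 519 CPM in *Grhl3*-null. In male cells it was at 584 and 559 CPM in WT and 484 and 493 CPM in *Grhl3*-null. The groups did not overlap in either sex, and WT male and WT female cells were themselves further apart than the genotypes were within a sex. The log2 differences were 0.26 ± 0.04 in female and -0.22 ± 0.04 in male cells, and they differed from each other (male minus female -0.48 ± 0.05, adjusted p = 1.31e-05, edgeR interaction term). *Fgf17* (0.20 and -0.48), *Fgf3* (0.41 and -0.97) and *Fgf4* (0.55 and -0.59) had the same signs in female and male NMP-like cells, and their interaction terms were also called. *Fgf3* in male cells went from 38.5 and 40.8 CPM to 23.6 and 16.7 CPM.

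In neuroepithelium-like cells, the forming neural tube, 4 of 6 tested members were called, against 20.7% of all genes. *Fgf17* was at 83.5 and 73.2 CPM in WT and at 13.2 and 12.97 CPM in *Grhl3*-null (log2 difference -2.61 ± 0.07, adjusted p = 4.09e-10). *Fgf8* was at 84.5 and 69.8 CPM in WT and at 22.9 and 23.4 CPM in *Grhl3*-null (-1.76 ± 0.08, adjusted p = 2.96e-08). *Fgf18* was at 14.6 and 11.03 CPM in WT and at 2.79 and 1.84 CPM in *Grhl3*-null (-2.49 ± 0.19, adjusted p = 1.91e-06). These 3 genes were lower in both *Grhl3*-null libraries than in either WT library. *Fgf15* was higher, at 68.5 and 67.7 CPM against 40.2 and 41.7 CPM (0.71 ± 0.04, adjusted p = 2.41e-07).

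The size of the first 3 differences depended on where the class was bounded. At a clustering resolution of 0.8 the log2 difference was -0.16 for *Fgf8* and -0.14 for *Fgf17*, and neither was called. With cells assigned by marker score it was -0.19 for *Fgf8*, not called, and -1.09 for *Fgf17*, called. *Fgf18* was not called in either, at -0.66 and -0.09. Sex also moved with the class: 133 of 974 WT and 889 of 1270 *Grhl3*-null neuroepithelium-like cells were male. Within the sexes *Fgf17* was lower in *Grhl3*-null in both (-1.62 ± 0.09 in female, -1.08 ± 0.20 in male cells), as was *Fgf8* (-1.56 ± 0.11 and -0.60 ± 0.14). *Fgf18* was lower in female cells (-3.73 ± 0.31) and had a difference of -0.07 ± 0.45 in male cells, and *Fgf15* was higher in male cells (0.55 ± 0.09) with 0.00 ± 0.10 in female cells. The 12 posterior *Hox* genes summed to 175 and 161 CPM in WT neuroepithelium-like cells and to 1.68 and 0.44 CPM in *Grhl3*-null ones, and to 216 and 215 CPM in WT female and 5.54 and 1.83 CPM in WT male cells. Their part in the Fgf differences was not tested.

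To compare cells at like positions, NMP-like and neuroepithelium-like cells were ordered by 8 rostral minus 7 caudal neural genes, none of them an Fgf gene, and cut into 10 bins. *Fgf8* fell along this axis from 819 and 848 CPM in WT and 820 and 820 CPM in *Grhl3*-null at the caudal end (bin 1) to 7.47 and 8.99 CPM and 5.66 and 5.01 CPM at the rostral end (bin 10). In bins 3 and 4 both *Grhl3*-null libraries lay above both WT libraries, with 590 and 549 CPM in WT against 626 and 611 CPM in bin 3. In bin 6 *Fgf8* was at 108 and 134 CPM in WT and 119 and 157 CPM in *Grhl3*-null, and the groups overlapped. From bin 7 to bin 10 both *Grhl3*-null libraries lay below both WT libraries, with 56.0 and 43.2 CPM against 30.2 and 35.8 CPM in bin 7. Within the sexes this did not hold throughout: in bin 7 the groups separated in male cells (35.7 and 29.7 CPM against 10.5 and 14.9 CPM) and overlapped in female cells (58.1 and 42.1 CPM against 40.01 and 53.4 CPM), in bin 8 they overlapped in both, and in bin 9 *Fgf8* was higher in *Grhl3*-null female cells (11.8 and 10.99 CPM against 12.5 and 15.2 CPM). In bins 8 to 10 *Fgf8* was at 22.7 CPM or less in each library, against 12.8 to 32.3 CPM in erythroid-like cells. The part of free RNA in these bins was not tested. *Fgf17* was at 113 and 121 CPM in WT and 74.5 and 73.7 CPM in *Grhl3*-null in bin 6, and at 67.8 and 57.3 CPM against 26.9 and 22.6 CPM in bin 7. From bin 3 to bin 10 both *Grhl3*-null libraries lay below both WT libraries for *Fgf17*. In bins 9 and 10 it was at 9.64 CPM or less in each library, against 4.48 to 10.2 CPM in erythroid-like cells. *Fgf18* separated in bins 4 to 7, with 14.9 and 19.1 CPM in WT and 5.31 and 6.42 CPM in *Grhl3*-null in bin 6.

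**Figure D3:**
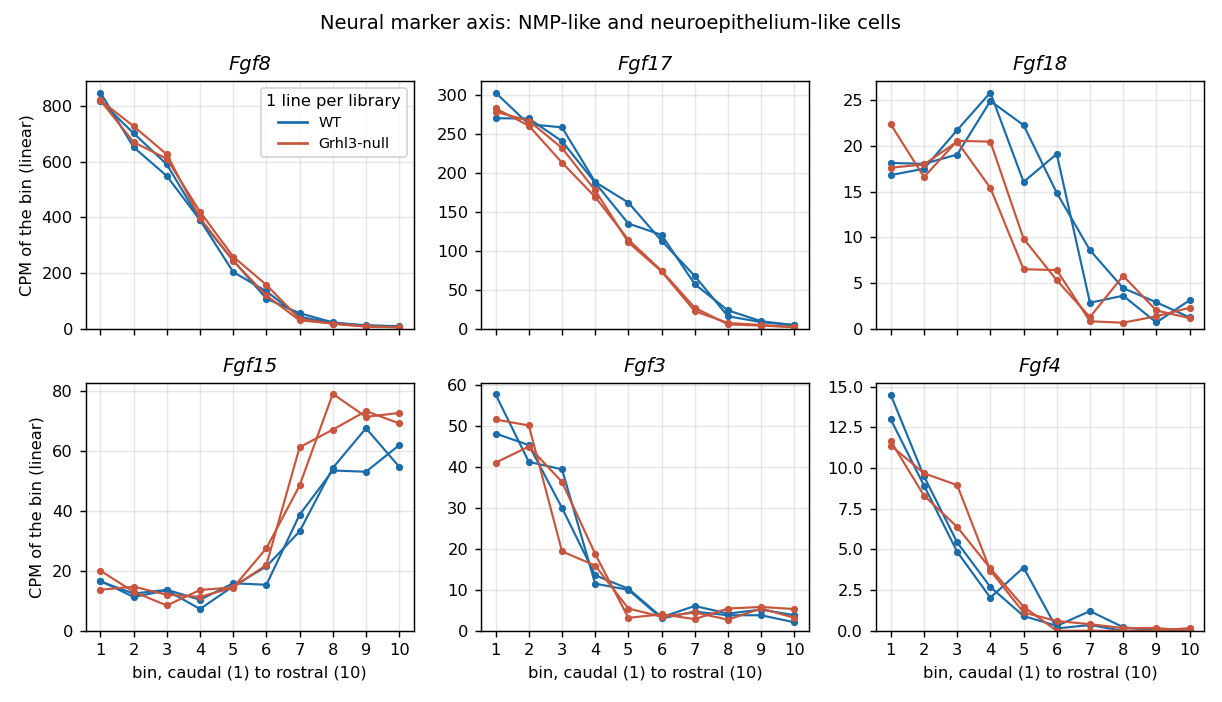
CPM (linear axes, 1 line per library, WT blue, *Grhl3*-null red) of 6 members in 10 bins of cells from caudal (bin 1) to rostral (bin 10) along the neural marker axis. Over all cells both *Grhl3*-null lines of *Fgf8* lay above WT in bins 3 and 4 and below from bin 7, and overlapped in bins 1, 2, 5 and 6. The lines of *Fgf17* and *Fgf18* separated in the middle bins and those of *Fgf15* in bins 6 to 10, each over all cells.

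At mid-axis *Fgf17* in bins 5 and 7 and *Fgf18* in bins 5 to 7 were lower in both *Grhl3*-null libraries in the cells of each sex. In bin 7, *Fgf17* was at 80.9 and 69.2 CPM in WT and 37.8 and 28.4 CPM in *Grhl3*-null female cells, and at 30.01 and 33.1 CPM against 10.5 and 17.1 CPM in male cells. In bin 6, *Fgf18* was at 17.0 and 23.5 CPM against 6.67 and 6.10 CPM in female and at 11.9 and 8.71 CPM against 2.43 and 3.75 CPM in male cells. In other bins the sexes differed. *Fgf17* overlapped in male cells of bin 6 (63.1 and 64.2 CPM against 43.1 and 65.3 CPM) and in female cells of bin 3 (264 and 224 CPM against 224 and 250 CPM), and was higher in *Grhl3*-null female cells of bin 4 (181 and 189 CPM against 207 and 210 CPM). *Fgf18* was higher in *Grhl3*-null male cells of bin 4 (12.98 and 14.4 CPM against 19.7 and 15.1 CPM). No test was run on the bins. *Fgf15* rose along the axis in all libraries, from 13.7 to 20.01 CPM in bin 1 to 54.7 and 61.8 CPM in WT and 69.1 and 72.6 CPM in *Grhl3*-null in bin 10. Its mean over bins in female cells was 27.5 and 26.9 CPM in WT (10 bins) and 20.5 and 21.6 CPM in *Grhl3*-null (9 bins). In male cells this mean was 28.2 and 30.2 CPM (9 bins) against 43.1 and 37.8 CPM (10 bins). Bins with too few cells were left out, so these means do not cover the same bins in both genotypes. *Fgf3* and *Fgf4* fell from 48.1 and 57.6 CPM and from 12.98 and 14.5 CPM in WT in bin 1 to 3.81 CPM or less and to 0 in bin 10.

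A gate of cells with at least 2 UMIs each of *T* and *Sox2*, the usual definition of NMPs, was set over all classes and held 3058 cells. In it *Fgf8* was at 364 and 352 CPM in WT and 323 and 344 CPM in *Grhl3*-null, and *Fgf17* at 168 and 159 CPM against 119 and 130 CPM. In 1880 cells of all classes with *Nkx1-2* and without *T*, *Fgf8* was at 31.2 and 37.7 CPM against 18.99 and 20.2 CPM and *Fgf17* at 32.8 and 28.3 CPM against 13.8 and 13.4 CPM. The groups did not overlap for either gene in either gate. The *Nkx1-2* gate was not limited to neural cells: *Fgf10* in it was at 12.6 and 12.6 CPM in WT and 17.0 and 15.5 CPM in *Grhl3*-null. In NMP-like and neuroepithelium-like cells *Fgf10* was at 2.08 CPM or less in each library. Neither gate was split by class or sex, and the part of their cell mix was not tested.

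Somitic mesoderm-like cells had 3 of 7 tested members called, all lower, against 19% of all genes. *Fgf8* was at 160 and 156 CPM in WT and 127 and 131 CPM in *Grhl3*-null (-0.31 ± 0.03, adjusted p = 1.32e-05). This difference was called in both sexes, at -0.32 ± 0.04 in female and -0.43 ± 0.05 in male cells. *Fgf3* was at 79.2 and 82.1 CPM against 69.7 and 73.7 CPM (-0.18 ± 0.04, adjusted p = 0.00237). It was -0.04 and not called at a resolution of 0.8, and was called neither with DESeq2 nor in either sex alone. *Fgf18* was at 11.4 and 11.8 CPM against 8.09 and 9.97 CPM (-0.38 ± 0.09, adjusted p = 0.00733), a call that ended with DESeq2 and turned to 0.37 by marker score. *Fgf4* was at 9.83 and 9.90 CPM against 10.4 and 10.98 CPM (0.10 ± 0.08, adjusted p = 0.425), a level that was 1.95 times higher in WT when cells were assigned by marker score. *Fgf17*, at 79.0 and 80.0 CPM against 82.4 and 81.7 CPM (0.03 ± 0.03, adjusted p = 0.558), again split by sex, with 0.33 ± 0.05 in female and -0.44 ± 0.06 in male cells.

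Paraxial mesoderm-like cells had 4 of 7 tested members called, against 20.5% of all genes. *Fgf18* was at 136 and 118 CPM in WT and 83.0 and 91.1 CPM in *Grhl3*-null (-0.58 ± 0.06, adjusted p = 1.41e-05). *Fgf15* (0.86 ± 0.10), *Fgf10* (0.43 ± 0.14) and *Fgf8* (0.27 ± 0.07) were higher in *Grhl3*-null, *Fgf15* from 6.10 and 6.73 CPM to 10.96 and 12.7 CPM. The calls of *Fgf10* and *Fgf8* ended with DESeq2 and without WT library 1 (0.32 and 0.11). *Fgf8* had opposite signs in the sexes (0.33 in female, -0.29 in male cells, neither called), and 413 of 1148 *Grhl3*-null and 181 of 974 WT cells of this class had no sex call. Over all cells *Fgf8* was at 53.9 and 68.1 CPM in WT and 74.5 and 75.0 CPM in *Grhl3*-null. These lay above the female (40.1 and 47.8 against 37.8 and 72.8 CPM) and male values (50.7 and 59.5 against 46.7 and 43.6 CPM). Cells without a sex call therefore held more *Fgf8*. At a resolution of 0.8 a paraxial mesoderm-like cluster of 680 cells had a median of 79152.5 UMIs, and its part was not tested. *Fgf18* also turned direction with sex: it was at 134 and 134 CPM in WT and 171 and 162 CPM in *Grhl3*-null female cells, and at 214 and 171 CPM against 81.9 and 97.4 CPM in male cells. In this class 96 of 974 WT cells and 618 of 1148 *Grhl3*-null cells were male. The interaction term for *Fgf18* was -1.46 ± 0.12 (adjusted p = 7.78e-10, edgeR).

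Along a paraxial axis of 8 rostral minus 9 caudal genes, drawn through the pre-somitic, somitic and paraxial mesoderm-like cells, *Fgf3* fell from 157 and 156 CPM in WT and 146 and 155 CPM in *Grhl3*-null in bin 1 to 2.85 CPM or less in bin 10. *Fgf18* rose from under 6 CPM to 161 and 131 CPM in WT and 81.8 and 87.3 CPM in *Grhl3*-null in bin 8. In bin 10 the genotypes were close, at 107 and 106 CPM against 101 and 105 CPM. The lower *Grhl3*-null level in bin 8 was that of male cells (278 and 213 CPM against 75.9 and 92.7 CPM), while in female cells *Fgf18* was higher in *Grhl3*-null (167 and 156 CPM against 176 and 202 CPM). *Fgf10* was highest in bins 6 and 7, where it was between 11.9 and 15.2 CPM in all libraries. *Fgf4* and *Fgf15* lay above WT in both *Grhl3*-null libraries in bins 1 to 4, and *Fgf15* again in bins 6 to 9. In bin 1 *Fgf4* was at 20.3 and 21.0 CPM in WT and 30.1 and 30.3 CPM in *Grhl3*-null, and *Fgf15* at 35.4 and 40.9 CPM against 55.1 and 56.8 CPM. Without the pre-somitic mesoderm-like cells, which were nearly all WT, the log2 difference in the mean over bins went from 0.67 to 0.14 for *Fgf4* and from 0.45 to 0.20 for *Fgf15*. That for *Fgf18* went from -0.38 to -0.36.

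**Figure D4:**
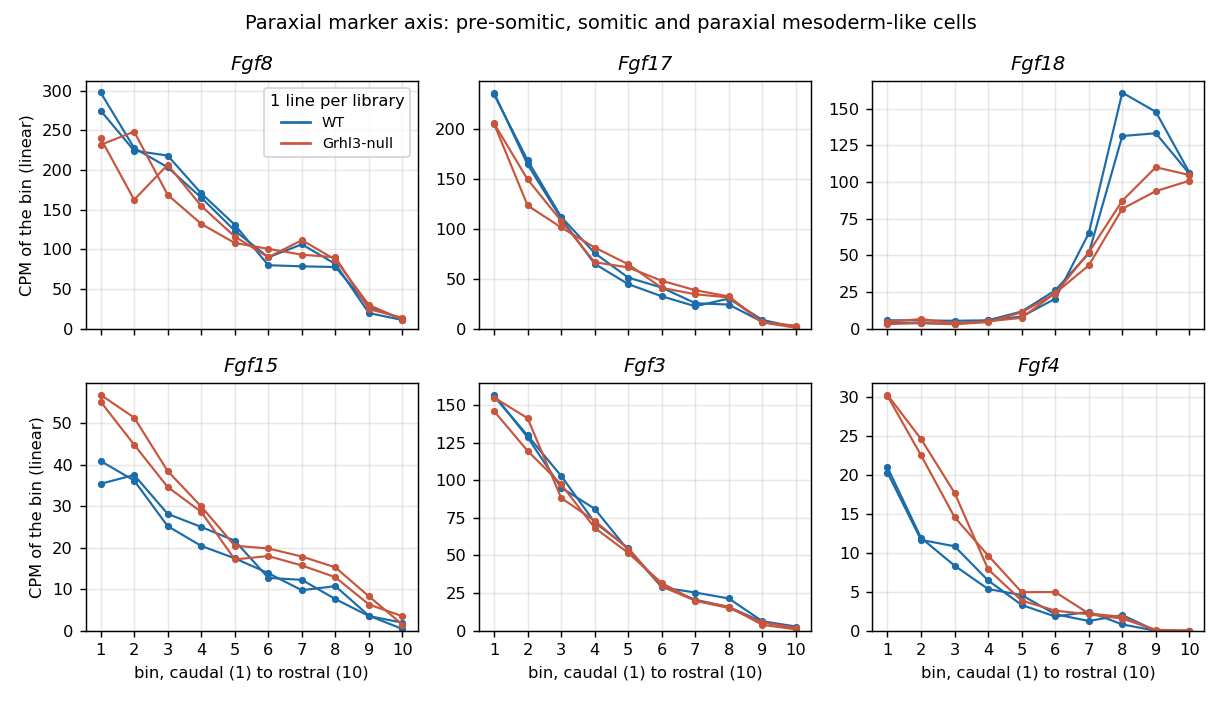
CPM (linear axes, 1 line per library, WT blue, *Grhl3*-null red) of 6 members in 10 bins of cells from caudal (bin 1) to rostral (bin 10) along the paraxial marker axis. *Fgf3* fell alike in both genotypes, *Fgf18* peaked in bins 8 and 9 in WT with lower *Grhl3*-null values over all cells, though not in female cells, and *Fgf4* and *Fgf15* were higher in *Grhl3*-null in bins 1 to 4.

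In gut-like cells 4 of 6 tested members were called, all lower, against 19.2% of all genes. *Fgf8* was at 194 and 223 CPM in WT and 129 and 156 CPM in *Grhl3*-null (-0.58 ± 0.07, adjusted p = 1.40e-05). *Fgf17* was at 66.8 and 80.0 CPM against 36.9 and 42.7 CPM (-0.91 ± 0.08, adjusted p = 1.41e-07). *Fgf3* and *Fgf18* were called at low levels and not with DESeq2, 3.30 and 3.25 CPM against 1.34 and 1.54 CPM and 4.81 and 3.25 CPM against 2.07 and 2.05 CPM. *Fgf17* was called in both sexes, at -0.46 ± 0.12 in female and -1.23 ± 0.10 in male cells, and *Fgf8* in male cells only (-1.01 ± 0.13, against -0.12 ± 0.13 in female cells; interaction adjusted p = 0.0185, edgeR). Cells with *Cdx2*, a hindgut marker, made up 1224 gut-like cells, and in them *Fgf8* was at 199 and 227 CPM against 136 and 162 CPM. Gut-like cells without *Cdx2* numbered 29 over all libraries. The 12 posterior *Hox* genes summed to 172 and 228 CPM in WT and 39.4 and 37.9 CPM in *Grhl3*-null gut-like cells, and the 12 caudal growth zone genes to 880 and 914 CPM against 666 and 702 CPM. Their part in the Fgf differences was not tested.

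In surface ectoderm/neural plate border-like cells, 3 of 7 tested members were called, against 14.2% of all genes. *Fgf8* was higher in *Grhl3*-null, at 127 and 125 CPM against 87.1 and 76.8 CPM (0.58 ± 0.06, adjusted p = 1.12e-06). *Fgf17* (-0.26 ± 0.06, from 104 and 108 CPM to 84.8 and 96.7 CPM) and *Fgf3* (-0.45 ± 0.14, from 11.1 and 10.1 CPM to 7.96 and 7.98 CPM) were lower, though neither was called with DESeq2 or without *Grhl3*-null library 1 (-0.17 and -0.45). These followed sex: *Fgf8* was at 71.7 and 69.9 CPM in WT and 175 and 180 CPM in *Grhl3*-null female cells, and at 109 and 92.7 CPM against 88.9 and 75.4 CPM in male cells. The interaction term was -1.54 ± 0.12 (adjusted p = 6.88e-08, edgeR), and *Fgf17* was higher in female (0.24 ± 0.08) and lower in male cells (-0.95 ± 0.11).

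**Figure D5:**
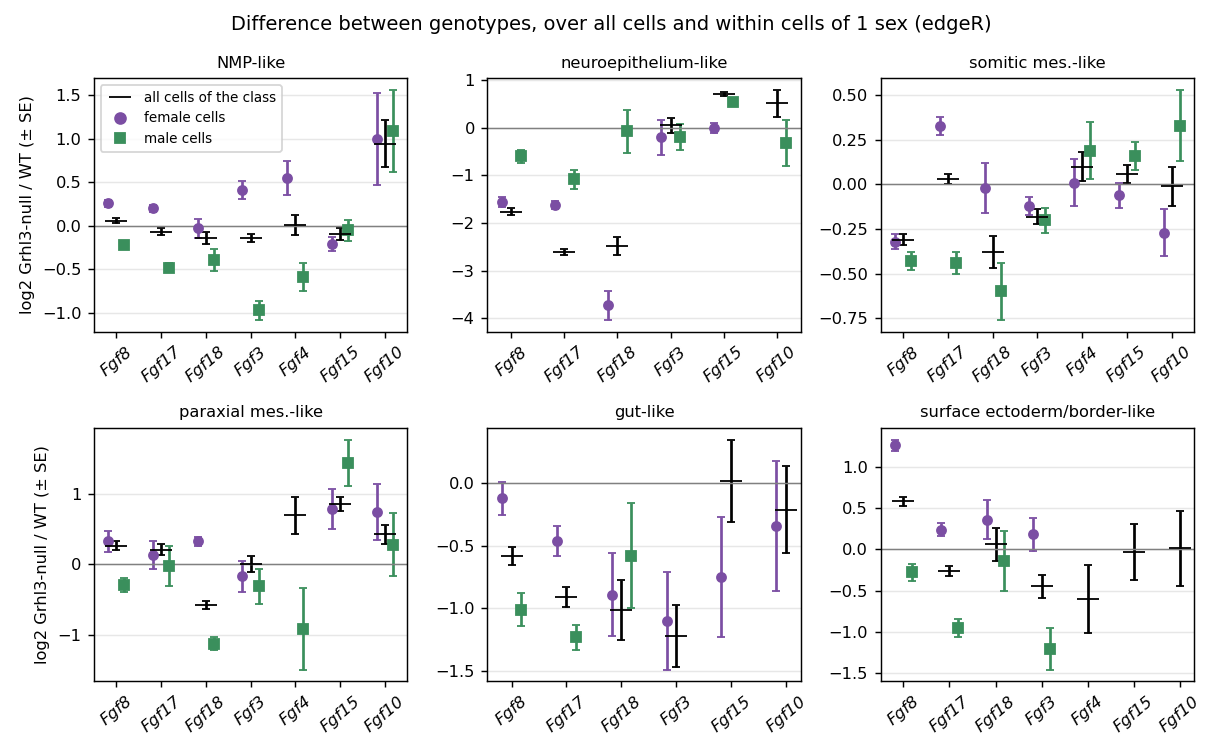
Log2 difference of *Grhl3*-null over WT (± SE, edgeR, linear axis of log2 values) for each tested member in 6 classes, over all cells (black bars), female cells (purple circles) and male cells (green squares). In NMP-like cells *Fgf8*, *Fgf17*, *Fgf3* and *Fgf4* lay above 0 in female and below 0 in male cells, while *Fgf8* in somitic mesoderm-like and *Fgf17* in neuroepithelium-like and gut-like cells lay below 0 in both.

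Notochord-like cells had 2 of 6 tested members called, both lower, against 2.42% of all genes: *Fgf17* (87.3 and 93.7 CPM against 56.5 and 48.0 CPM, -0.81 ± 0.13, adjusted p = 6.76e-04) and *Fgf8* (228 and 255 CPM against 134 and 211 CPM, -0.49 ± 0.13, adjusted p = 0.0483). The second call ended with DESeq2 and without *Grhl3*-null library 1 (-0.22). Intermediate mesoderm-like cells had 3 of 6 called against 2.99%. *Fgf10* was higher (20.2 and 18.1 CPM against 34.7 and 35.9 CPM, 0.91 ± 0.14), as was *Fgf15* (1.18 ± 0.32), and *Fgf18* was lower (-0.53 ± 0.12), and these 3 calls ended with DESeq2. *Fgf10* there was at 18.9 and 8.69 CPM in WT and 72.3 and 63.2 CPM in *Grhl3*-null female cells, but at 29.1 and 45.9 CPM against 30.8 and 27.7 CPM in male cells, where 31 WT and 120 *Grhl3*-null cells were counted.

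Mesenchyme 1-like cells, where *Fgf10* was highest, had 2 of 6 tested members called against 6.26% of all genes, *Fgf17* (-0.94 ± 0.15) and *Fgf3* (-0.76 ± 0.16), both lower and both under 11 CPM, the second not called with DESeq2 or without WT library 1 (-0.61). *Fgf10* itself was at 30.4 and 28.9 CPM in WT and 26.1 and 27.0 CPM in *Grhl3*-null (-0.15 ± 0.05, adjusted p = 0.139), with no overlap between the groups. *Fgf17* there was called in both sexes (-0.80 ± 0.18 in female, -1.27 ± 0.23 in male cells). Mesenchyme 2-like cells had 2 of 6 called against 19.7%: *Fgf10* (12.5 and 11.6 CPM against 6.04 and 6.71 CPM, -0.91 ± 0.13) and *Fgf17* (-1.10 ± 0.36), both lower. The calls ended without *Grhl3*-null library 1 (-0.85 and -0.62). In male cells the values were 0.84 ± 0.34 for *Fgf10* and 0.06 ± 0.65 for *Fgf17*, neither called, against -1.19 ± 0.20 and -1.63 ± 0.44 in female cells, both called. The interaction was called for *Fgf10* (adjusted p = 3.30e-04, edgeR) and not for *Fgf17* (adjusted p = 0.197), and 14.5% of sexed WT but 73.2% of sexed *Grhl3*-null cells were male. Endothelium-like cells had 0 of 6 and erythroid-like cells 0 of 3 tested members called by edgeR, against 0.550% and 0.443% of all genes. An unadjusted p under 0.05 was found for *Fgf15* in endothelium-like cells (0.0165) and for 0 members in erythroid-like cells, and DESeq2 called 0 in both.

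Of the 34 called pairs, 26 had a value in both sexes: by sign alone 14 were lower in both, 4 were higher in both and 8 had opposite signs. Some of these signs rest on estimates smaller than their SE. Examples are *Fgf15* in female (0.00 ± 0.10) and *Fgf18* in male (-0.07 ± 0.45) neuroepithelium-like cells. Others are *Fgf18* in female somitic mesoderm-like cells (-0.02 ± 0.14) and *Fgf17* in male Mesenchyme 2-like cells (0.06 ± 0.65). Calls within a sex stood at 14.5% of all gene and class pairs in female and 8.39% in male cells. 5 pairs were called lower in both sexes: *Fgf17* in neuroepithelium-like, gut-like and Mesenchyme 1-like cells, and *Fgf8* in neuroepithelium-like and somitic mesoderm-like cells. Outside or among the 34, 6 pairs were called in both sexes in opposite directions: *Fgf18* in paraxial mesoderm-like and *Fgf17* in surface ectoderm/neural plate border-like cells, which were among them, and *Fgf8*, *Fgf17* and *Fgf3* in NMP-like and *Fgf17* in somitic mesoderm-like cells, which were not. The interaction of genotype and sex was called for 19 of 64 member and class pairs, against 11.4% of all gene and class pairs. With 5 and 3 embryos in the pools, sex and embryo cannot be told apart here.

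Over all cells of the caudal region, 7 of 8 members were called, against 35.5% of all genes. *Fgf3* was at 28.3 and 29.8 CPM in WT and 16.6 and 17.3 CPM in *Grhl3*-null (-0.81 ± 0.03, adjusted p = 5.02e-06). *Fgf17* was at 78.4 and 80.3 CPM against 51.6 and 51.9 CPM (-0.65 ± 0.02, adjusted p = 2.16e-06), and *Fgf8* at 155 and 159 CPM against 122 and 125 CPM (-0.37 ± 0.02, adjusted p = 4.09e-05). *Fgf4* (-0.34 ± 0.06) and *Fgf18* (-0.28 ± 0.05) were also lower, and *Fgf15* (0.23 ± 0.03) and *Fgf10* (0.22 ± 0.04) were higher. *Fgf5* was not called (0.31 ± 0.30, adjusted p = 0.512). The interaction of genotype and sex was called for 8 of 8 members over all cells, against 31.7% of all genes. Several directions turned with sex: *Fgf10* was higher in female (0.77) and lower in male cells (-0.40), and *Fgf15* lower in female (-0.41) and higher in male cells (0.46), all called. *Fgf8* (0.07) and *Fgf4* (0.22) were not called in female cells and were lower in male cells (-0.96 and -1.23), while *Fgf18* was lower in female cells (-0.98) and not called in male cells (0.08). *Fgf3* (-0.44 and -1.41) and *Fgf17* (-0.16 and -1.27) were lower in both.

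These whole-tissue values hold the shares of the classes. With the WT level of each class kept and only the class shares of *Grhl3*-null applied, *Fgf3* differed by -0.60 (log2) and the levels within classes added -0.18. For *Fgf17* the parts were -0.29 and -0.33, for *Fgf8* -0.24 and -0.10, for *Fgf18* 0.28 and -0.53, for *Fgf15* -0.15 and 0.41, for *Fgf4* -0.43 and 0.11 and for *Fgf10* 0.26 and -0.02. Thus for *Fgf3*, *Fgf4*, *Fgf8* and *Fgf10* the larger part lay in the class shares, and for *Fgf18* and *Fgf15* in the levels within classes. For *Fgf4*, *Fgf10*, *Fgf15* and *Fgf18* the parts had opposite signs. The near loss of pre-somitic mesoderm-like cells from the *Grhl3*-null libraries is part of the shares.

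Of the receptors, *Fgfr1* was broad, at 48.4 to 146 CPM (WT mean) in all named classes but the erythroid-like one (6.58 CPM). It was called in 1 of 6 classes where a member was highest, paraxial mesoderm-like cells (143 and 148 CPM against 127 and 130 CPM, -0.21 ± 0.04, adjusted p = 0.00129). *Fgfr2* was higher in *Grhl3*-null somitic mesoderm-like cells (3.73 and 3.35 CPM against 6.83 and 6.63 CPM, 0.92 ± 0.12) and neuroepithelium-like cells (40.2 and 49.0 CPM against 73.0 and 73.8 CPM, 0.70 ± 0.07) and lower in NMP-like cells (-0.51 ± 0.12). It was also higher in Mesenchyme 1-like (0.29 ± 0.07) and paraxial mesoderm-like cells (0.28 ± 0.06). *Fgfr3* was called in neuroepithelium-like cells alone among the 6, where it was higher (4.32 and 4.57 CPM against 9.21 and 9.73 CPM, 1.06 ± 0.11). Of all genes tested, 9.36% were higher and 11.4% lower in neuroepithelium-like cells, 8.65% and 11.9% in paraxial mesoderm-like cells, 8.74% and 10.3% in somitic mesoderm-like cells, 7.91% and 10.5% in NMP-like cells, 3.56% and 2.70% in Mesenchyme 1-like cells and 1.21% and 1.22% in notochord-like cells. Over the 13 receptors and signal transducers, 3 were higher and 1 lower of 12 tested in neuroepithelium-like cells, 1 and 2 of 10 in paraxial mesoderm-like cells, 2 and 0 of 10 in somitic mesoderm-like cells, 0 and 1 of 10 in NMP-like cells and 1 and 0 of 10 in Mesenchyme 1-like cells. 0 of 9 were called in notochord-like cells. These counts lie within 2 genes of what the shares of all genes would give.

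The 16 feedback and target genes of Fgf signalling, among them the Sprouty genes, *Dusp6* and *Etv4*, went both ways between classes. In neuroepithelium-like cells 2 were higher and 10 lower of 16, with a list median of -0.52 (log2), where the shares of all genes would give 1 or 2 each way. *Dusp6*, a MAP kinase phosphatase, was at 51.3 and 53.6 CPM in WT and 21.1 and 20.5 CPM in *Grhl3*-null there (-1.36 ± 0.05, adjusted p = 4.75e-09). In NMP-like cells 8 were higher and 1 lower (median 0.14), with *Spry2* at 31.0 and 27.3 CPM against 37.6 and 40.2 CPM and *Etv4* as the lower gene (122 and 130 CPM against 95.4 and 108 CPM). In paraxial mesoderm-like cells 8 were higher and 1 lower (median 0.20), in somitic mesoderm-like cells 6 and 0 (median 0.16), in Mesenchyme 1-like cells 2 and 0 and in notochord-like cells 0 and 0. The median of all genes was 0.01 or closer to 0 in each class. All these gene lists were tested only at the main class boundaries and not within a sex. The neuroepithelium-like class also held different positions: bin 5 of the neural axis had 39 and 31 of its cells in WT and 10 and 7 in *Grhl3*-null. In bin 10 there were 68 and 73 against 164 and 209. The part of position and sex in the list differences was not tested.

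The 12 caudal growth zone genes, such as *T*, *Cdx2* and *Wnt3a*, had 1 member higher and 7 lower of 11 tested in neuroepithelium-like cells, against 9.36% and 11.4% of all genes. Their summed level there was 677 and 680 CPM in WT and 596 and 588 CPM in *Grhl3*-null female cells, and 675 and 593 CPM against 282 and 268 CPM in male cells. *T* was at 38.0 and 38.6 CPM in WT and 10.7 and 14.9 CPM in *Grhl3*-null there (-1.61 ± 0.10), and *Cdx2* at 191 and 187 CPM against 75.0 and 74.7 CPM (-1.36 ± 0.04). The list had 0 higher and 6 lower of 12 in NMP-like cells, 0 and 7 of 11 in Mesenchyme 1-like cells and 6 and 1 of 12 in paraxial mesoderm-like cells. It had 2 and 3 of 12 in somitic mesoderm-like cells and 0 and 1 of 10, *Cdx2*, in notochord-like cells. The 9 retinoic acid genes had 7 higher and 2 lower in neuroepithelium-like cells, with *Aldh1a2*, which makes retinoic acid, at 29.9 and 23.1 CPM against 67.1 and 67.2 CPM (1.31 ± 0.08) and *Cyp26a1*, which degrades it, at 39.2 and 36.0 CPM against 10.9 and 15.6 CPM (-1.53 ± 0.11). In somitic mesoderm-like cells *Aldh1a2* was lower (31.2 and 35.2 CPM against 14.9 and 13.9 CPM, -1.22 ± 0.07) and was the 1 lower gene beside 1 higher. The list had 2 and 2 in NMP-like cells, 3 and 2 in paraxial mesoderm-like and in Mesenchyme 1-like cells and 1 and 0 in notochord-like cells. The 15 carriers and heparan sulphate genes had 3 higher and 3 lower of 14 in neuroepithelium-like cells, where the carrier *Fgfbp3* was higher (0.69 ± 0.04), and 2 and 1 of 15 in NMP-like cells, where it was lower (64.8 and 61.1 CPM against 27.8 and 26.5 CPM, -1.23 ± 0.05). They had 3 and 3 of 15 in paraxial mesoderm-like cells, 3 and 2 of 15 in somitic mesoderm-like cells, 1 and 1 of 14 in Mesenchyme 1-like cells and 0 and 0 of 13 in notochord-like cells, all within 2 genes of the shares of all genes. The other 14 Fgf genes had 1 and 0 of 6 tested in neuroepithelium-like cells and 2 and 0 of 6 in NMP-like cells.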

How the data were processed

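The authors ran Cell Ranger 3.0.0 with the mm10 genome and deposited raw UMI counts, 1 table per library, for the cells that program called. Barcodes had to reach 3000 genes and 7500 UMIs and to stay within a mitochondrial share of 7%, which left 20198 cells and 209833527 to 226723903 UMIs per library. An automatic doublet caller marked only 1 or 2 cells per library and had not worked, so all cells were kept, and removing the 5% with the highest scores was an alternative. Cells were clustered with Seurat 5.3.0 (sctransform 0.4.2, 3000 variable features less the 8 Fgf genes, 30 components, 20 neighbours, resolution 0.4), and clusters were named from the study's marker list without those genes. Names were rebuilt here and may differ from the study's. Counts were summed per class and library and tested with edgeR 4.0.16 (TMM scaling, filterByExpr, quasi-likelihood test, Benjamini-Hochberg adjustment over all genes of the class) where each library had at least 10 cells. The fits were tested on simulated data with planted changes. Sex was called from UMIs of 4 Y-linked genes and *Xist*: 2 or more Y-linked and no more than 2 *Xist* UMIs for male cells, 3 or more *Xist* and no more than 1 Y-linked UMI for female cells.

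The rule for named genes took the 8 members, Grhl3, the 3 genes most like each member over the clusters among genes with at least 5 CPM, Fgfr1 to Fgfr3, and up to 5 genes per direction of the lists of receptors, feedback targets, carriers, caudal growth zone and retinoic acid genes with at least 10 CPM. The other Fgf genes and posterior Hox genes were described as lists only. The 8 members and these lists were chosen with earlier results of these data known. *Fgf3* was highest in a class too small in *Grhl3*-null to be fitted, so its alternatives were run in somitic mesoderm-like cells, and *Fgf5* passed the filter in no class. Exact binomial intervals are at 95%. Gene positions are from GENCODE and promoter sequences from RefSeq, whose table held 5 of the 8 members (not *Fgf8*, *Fgf15* or *Fgf17*). DESeq2 1.42.0, no count filter, a replicate block, leaving out each library, other class definitions and cell filters, and each sex alone were the alternatives.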

Additional observations from a re-analysis of the deposited data

Results flagged for a closer look

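The results listed here were picked out because the difference between *Grhl3*-null and WT was not the same in male and female cells, by edgeR's interaction term with an adjusted p under 0.05. Values are the log2 difference in male cells minus that in female cells. In NMP-like cells this was -0.48 for *Fgf8*, -0.68 for *Fgf17*, -1.38 for *Fgf3* and -1.14 for *Fgf4*. In gut-like cells it was -0.88 for *Fgf8* and -0.78 for *Fgf17*, in somitic mesoderm-like cells -0.77 for *Fgf17*, in paraxial mesoderm-like cells -1.46 for *Fgf18* and in intermediate mesoderm-like cells -2.71 for *Fgf10*. In surface ectoderm/neural plate border-like cells it was -1.54 for *Fgf8*, -1.20 for *Fgf17*, -1.40 for *Fgf3* and 3.92 for *Fgf15*, the last at 1.56 to 4.46 CPM in the 4 libraries. Neuroepithelium-like cells had 0.96 for *Fgf8*, 3.66 for *Fgf18* and 0.55 for *Fgf15*, Mesenchyme 1-like cells 1.38 for *Fgf8* and 0.98 for *Fgf15*, and Mesenchyme 2-like cells 2.04 for *Fgf10*. Over all cells the values were -1.04 for *Fgf8*, -1.11 for *Fgf17*, 1.06 for *Fgf18*, -0.98 for *Fgf3*, -1.45 for *Fgf4*, 3.46 for *Fgf5* (at 13 to 20 UMIs per library), -1.17 for *Fgf10* and 0.87 for *Fgf15*. The male and female cells of a pool are different embryos, and what these differences come from was not tested.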

How the results depend on the processing

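The count of 34 called member and class pairs was 17 with DESeq2, 18 in male cells, 20 in female cells, 13 with a log2 difference of at least 1 required as well, 38 with the replicate number as a block, and 26 to 34 without one library. The fits without one library leave 1 library in a group and assume that it varies like the others. Apart from the fits within each sex, the shares of all genes called under these settings are not given, so the counts describe the members only. The replicate numbers did not pair the libraries (r of their deviations 0.01 over all cells), so the block shares only a number. The 7 calls over all cells were 0 when a log2 difference of at least 1 was required. In their leading classes, *Fgf3* (-0.18) was no longer called with DESeq2 (-0.18), at resolution 0.8 (-0.04) or in male (-0.20) or female cells (-0.12). *Fgf4* was called at resolution 0.8 (0.31). *Fgf8* in NMP-like cells was called in female cells (0.26), turned in male cells (-0.22) and ranged from 0.01 to 0.11 without one library, being called without *Grhl3*-null library 1. *Fgf17* in NMP-like cells was called by marker score (-0.20) and in male cells (-0.48), turned in female cells (0.20) and ranged from -0.13 to -0.02 without one library, being called without *Grhl3*-null library 2. *Fgf15* in neuroepithelium-like cells lost its call in female cells (0.00), *Fgf18* in paraxial mesoderm-like cells turned in female cells (0.33), and *Fgf10* in Mesenchyme 1-like cells turned with the members kept in the clustering (0.31), when that class held other cells (4.89 CPM in place of 29.7 CPM). Elsewhere the direction turned in male cells for *Fgf10* in intermediate mesoderm-like (-0.37) and Mesenchyme 2-like cells (0.84), *Fgf17* in Mesenchyme 2-like cells (0.06), and *Fgf8* in paraxial mesoderm-like (-0.29) and surface ectoderm/neural plate border-like cells (-0.28). It turned in female cells for *Fgf3* (0.18) and *Fgf17* (0.24) in the last class, and by marker score for *Fgf18* in somitic mesoderm-like cells (0.37). The cause was not tested. Of the single-gene and axis values under the alternatives, 264 kept their direction and their side of the threshold, or a level within the spread. Another 93 kept only the direction and lost the call, and 8 turned. A further 28 were marked as moved: levels or shares beyond the spread, and every axis value without pre-somitic cells, whatever its change. Of the main values 105 stayed, 5 lost their call, 6 gained one, 5 moved and 4 turned. The axis without pre-somitic cells and the *Cdx2* gates were chosen after seeing the data. Depth limits *Fgf4* and *Fgf5*, and only 2 pools were compared.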
